A study of Mus musculus with 6 samples.

Results

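Egr1, Egr2, Egr3, Nr4a1, Nr4a2 and Nr4a3 are the 6 genes described here, out of 32285 genes in the single-cell matrices. They were taken by symbol, and all 6 were found once in each matrix. The cells were OT-II CD4+ T cells, whose transgenic receptor recognises an ovalbumin peptide, sorted out of Peyer's patches, which are gut-associated lymphoid organs. The study compared WT donor cells with cells heterozygous for M318R, an allele of the TGF-beta receptor gene Tgfbr1 that is found in patients with Loeys-Dietz syndrome and was knocked into the mouse gene.

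Both groups came from OTII+/+RAG-/- donors, per the labels, so neither group could rearrange receptor genes of its own. The cells were purified from donor lymph nodes and spleen and injected into CD45.1 WT hosts, which then drank water with 1.5% ovalbumin for 7 days. On day 8 the donor cells were sorted as CD45.2+, CD45.1-, CD4+, CD8- and TCRβ+. The WT group had 2 libraries (WT 1 and WT 2) and the heterozygous TgfbrIWT/mut group had 2 (mutant 1 and mutant 2). The labels do not say whether a library was 1 host or a pool, so all p-values measure only how far these libraries spread, and that spread may be technical. The WT matrices also held counts for 3 hashtag antibodies and the mutant matrices held none, so antibody handling and genotype cannot be told apart.

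The Egr genes encode zinc finger transcription factors and the Nr4a genes encode orphan nuclear receptors that act without a known physiological ligand. In T cells both families are switched on within minutes to hours of receptor engagement, and Nr4a1 and Egr2 reporters are widely used as readouts of recent receptor signal. Egr2 and Egr3 are also known for genes that restrain activation, and for a role in follicular helper T cells, which help B cells in germinal centres.

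Promoters are printed for 4 of the genes, to show motifs of signal-activated factors close to their starts. Each is the 250 bases before a RefSeq transcript start in GRCm38.p6, read 5′ to 3′ on the gene's strand: Egr2 from chr10:67537619-67537868, Nr4a1 from chr15:101266596-101266845, Nr4a2 from chr2:57124004-57124253 and Nr4a3 from chr4:48045055-48045304. The Nr4a3 start in RefSeq is 152 bases from the nearest GENCODE start used, and the other 3 coincide with one. Capitals mark the letters TGACG on either strand (CGTCA when read on the printed strand), which are part of the site bound by CREB, a factor activated by receptor signals, and the CArG box of serum response factor.
Egr2: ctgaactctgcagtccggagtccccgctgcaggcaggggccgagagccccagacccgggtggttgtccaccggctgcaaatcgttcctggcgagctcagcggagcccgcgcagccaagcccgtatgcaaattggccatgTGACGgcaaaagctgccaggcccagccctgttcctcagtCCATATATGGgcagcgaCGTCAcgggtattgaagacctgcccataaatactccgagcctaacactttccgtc
Nr4a1: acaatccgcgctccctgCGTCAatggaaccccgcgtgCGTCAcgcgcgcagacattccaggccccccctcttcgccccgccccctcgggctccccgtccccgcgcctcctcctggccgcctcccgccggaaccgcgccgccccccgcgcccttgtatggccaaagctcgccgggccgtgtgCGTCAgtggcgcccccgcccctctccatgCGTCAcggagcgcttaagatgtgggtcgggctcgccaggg
Nr4a2: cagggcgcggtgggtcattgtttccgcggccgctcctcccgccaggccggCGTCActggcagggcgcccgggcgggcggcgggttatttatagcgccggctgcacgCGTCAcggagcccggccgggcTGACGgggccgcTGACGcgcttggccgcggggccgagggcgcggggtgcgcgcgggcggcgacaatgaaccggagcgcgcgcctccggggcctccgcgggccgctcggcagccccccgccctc
Nr4a3: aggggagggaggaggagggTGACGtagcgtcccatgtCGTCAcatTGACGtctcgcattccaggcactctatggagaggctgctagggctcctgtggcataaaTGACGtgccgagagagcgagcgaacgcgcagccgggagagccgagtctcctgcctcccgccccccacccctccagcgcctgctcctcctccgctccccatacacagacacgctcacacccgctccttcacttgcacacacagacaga

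The Egr2 window held the TGACG letters at -111 and -55 and a CArG box at -72, counted from the transcript start. The Nr4a1 window held TGACG 4 times, at -233, -213, -69 and -40. The Nr4a2 window held it 4 times, at -200, -144, -123 and -111, and the Nr4a3 window 4 times, at -231, -213, -205 and -147. Of 32851 RefSeq promoter windows of the same length, 17.8% held TGACG on either strand and 1.47% held a CArG box. The full motif TGACGTCA, on either strand, was in none of the 4 windows and in 1.55% of all windows; TGACG is contained in it. Other motifs found were not capitalised. An Egr site (GCGNGGGCG) was at -60 for Nr4a1 and -74 for Nr4a2. The NFAT core GGAAA was at -8 for Egr2 and -230 for Nr4a2, and a MEF2 box was at -167 for Nr4a2. Of all windows, 4.7%, 55.6% and 2.92% held these 3 motifs in that order. All these matches describe letters only.

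Each gene lies on a different chromosome, so no pair shares a promoter. In GRCm38 with GENCODE vM21, Egr1 (ENSMUSG00000038418) lies on chromosome 18, 34859823 to 34864984, plus strand. Egr2 (ENSMUSG00000037868) lies on chromosome 10, 67535475 to 67542188, plus strand. Egr3 (ENSMUSG00000033730) lies on chromosome 14, 70077203 to 70082614, plus strand. The Nr4a genes are as widely spread. Nr4a1 (ENSMUSG00000023034) lies on chromosome 15, 101254269 to 101274795, plus strand. Nr4a2 (ENSMUSG00000026826) lies on chromosome 2, 57106830 to 57124003, minus strand. Nr4a3 (ENSMUSG00000028341) lies on chromosome 4, 48045153 to 48086447, plus strand.

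The data were UMI counts, which count captured 3′ ends of polyA RNA after removal of PCR copies, so levels are compared for 1 gene across cells and not between genes. After filters, 2971 T cells were kept, 1276 from WT 1, 631 from WT 2, 882 from mutant 1 and 182 from mutant 2. Their UMI totals were 12048907, 5724539, 7856304 and 1705481, and the median cell of a library held between 8638 and 9034 UMIs. Between 98.4% and 99.7% of kept cells had a Cd3e UMI and between 83.5% and 90.1% a Cd4 UMI, while at most 0.549% had a Cd8a UMI. Of the B cell list, summed CPM (UMIs scaled to a common library total) was 158 and 216 for WT and 280 and 331 for mutant cells, nearly all of it Ighm, with Cd79a at most 1.16 CPM and between 1 and 3 of 5 genes at 0. The myeloid list summed to between 74.5 and 85.3 CPM, the epithelial list to between 9.38 and 11.9 and the stromal list to at most 0.699. Each library shared between 9 and 21 of its barcodes with the other libraries.

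All 6 genes were detected in the kept T cells, but in very different shares of them. Egr1, the broadest early-response member, gave 6714 UMIs in 53.9% of cells. Egr2 gave 2097 UMIs in 29.4% and Egr3, its close relative, 2354 UMIs in 26.8%. Nr4a1, also known as Nur77, gave 1778 UMIs in 20.2%. Nr4a3 gave 641 UMIs in 9.02% and Nr4a2 529 UMIs in 4.17%. The rarer 2 genes were also concentrated: the 10 cells with most UMIs held 31.8% of all Nr4a2 UMIs and 20.1% of Nr4a3 UMIs, against 3.84% for Egr1. In mutant 2, 27 of the 69 Nr4a3 UMIs came from 1 cell.

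As a rough measure of free RNA, 106 barcodes of a cluster named epithelial were examined in the same way. They had a median of 4054 UMIs against 8765 in kept T cells. Egr1 was found in 17.9% of them, Egr2, Egr3 and Nr4a1 in 6.60% each and Nr4a3 in 0.943%. Nr4a2 had 0 UMIs there, which allows a share of up to 2.83% of cells by counting error alone. The B cell markers Cd79a, Ms4a1 and Cd79b were also among the leading genes of this cluster. Epithelial cells can express Egr1 themselves, and the barcodes held markers of both cell types, so this is an imperfect background. The shares in T cells were above these values for all 6 genes at unequal depths.

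Shares by library were compared after every cell was thinned to 4000 UMIs. Egr1 was found in 38.5% and 39.9% of WT and in 45.3% and 28.4% of mutant cells, library by library (52.8%, 55.3%, 56.8% and 41.8% unthinned). For Nr4a1 they were 16.7% and 12.6% in WT and 9.99% and 4.52% in mutant libraries (25.2%, 19.3%, 15.4% and 10.99% unthinned). Nr4a1 was thus the member whose 2 WT libraries both lay above both mutant libraries in share. Thinned shares of Egr2 ran from 17.4% to 22.2%, of Egr3 from 16.1% to 19.9%, of Nr4a2 from 2.31% to 3.52% and of Nr4a3 from 3.29% to 6.59%, with the groups overlapping for all 4. Thinning left out 31, 34, 61 and 27 shallower cells in the same order of libraries.

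Nr4a1 was the 1 member that differed between genotypes over all kept T cells, and it was lower in the mutant libraries. Counts were summed per library, scaled by TMM and tested in edgeR (quasi-likelihood), with p-values adjusted by Benjamini-Hochberg over 10727 genes. Nr4a1 levels were 89.5 (WT 1), 59.0 (WT 2), 41.8 (mutant 1) and 34.0 CPM (mutant 2). Both mutant libraries were below both WT libraries, and the WT pair differed from each other by more than the mutant pair did. On the log2 scale it fell by 0.94 ± 0.19 (SE; edgeR, Benjamini-Hochberg adjusted p = 0.0178). In this comparison 1.46% of all genes passed (0.914% higher and 0.55% lower), and 46.1% of genes had groups that did not overlap. In such sums, fewer cells of a type and less RNA per cell cannot be told apart.

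The call on Nr4a1 was sensitive to the libraries. Leaving out WT 1 gave -0.61 (edgeR adjusted p = 0.625), leaving out mutant 1 gave -1.16 (adjusted p = 0.121) and leaving out mutant 2 gave -0.85 (adjusted p = 0.0926), so the call was lost and the direction was not. It was also lost without cluster 6 described below (-0.93, edgeR adjusted p = 0.0934), with cells thinned to 4000 UMIs (-1.11, adjusted p = 0.0555) and with all filtered cells kept (-0.96, adjusted p = 0.453). Tfh-like cells, which were low in Nr4a1, were 12.9% and 25.0% of cells in WT and 40.7% and 26.4% in mutant libraries. Every library was also rebuilt to the same makeup of the 6 clusters that held at least 10 cells in each. These were 0, 1, 2, 3, 4 and the shallow 7, so clusters 5 and 6 were left out. The difference was then -0.79 (edgeR adjusted p = 0.00362). The test took the reweighted counts as if they were observed UMIs, so this p-value is not that of counted UMIs. Rebuilding also raised the weight of cluster 7 in WT 1, which was 14 cells (1.10% of that library) with 357 CPM of Nr4a1. Within the naive or memory-like class the difference was of similar size but did not pass, and the makeup of that class also differed between the groups. In Tfh-like cells and in cluster 1 the Nr4a1 values of the groups overlapped, as given with the classes below.

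Among immediate-early and heat shock genes, 3 fell in the mutant libraries. Fos, an AP-1 subunit induced by receptor signals and also by tissue handling, gave 269 and 182 CPM in WT and 83.8 and 55.0 CPM in mutant libraries, a log2 difference of -1.64 ± 0.19 (SE; edgeR adjusted p = 0.000238; 0.273 with all filtered cells kept). Hspa1a, a stress-induced heat shock protein, gave 197 and 116 CPM in WT and 37.0 and 85.6 CPM in mutant libraries (-1.52 ± 0.28, edgeR adjusted p = 0.00931), a call lost without mutant 1 (-0.90, edgeR adjusted p = 0.166), without cluster 6, with all filtered cells kept and with DESeq2 (adjusted p = 0.0751, 0.528 and 1.00). Of 21 AP-1 and other immediate-early genes tested, 0 rose and 2 fell (Fos and Ppp1r15a, a stress-induced phosphatase subunit), with a median log2 difference of -0.35 against -0.00 over all genes. Summed over the list of 24 genes, levels were 5841 and 5258 CPM in WT and 4936 and 4450 CPM in mutant libraries. Of 9 heat shock genes tested, 0 rose and 1 fell (Hspa1a). The list summed to 7111 and 6089 CPM in WT and 5949 and 5930 CPM in mutant libraries. The part of handling in the Nr4a1 difference was not tested.

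The other 5 members did not pass the test over all kept T cells, and their groups overlapped. Egr1 gave 229 and 248 CPM in WT and 296 and 171 CPM in mutant libraries (edgeR adjusted p = 0.999). Egr2 gave 64.6 and 82.4 CPM in WT and 98.5 and 58.4 CPM in mutant libraries (edgeR adjusted p = 0.741). Egr3 gave 81.4 and 82.6 CPM in WT and 104 and 66.9 CPM in mutant libraries (edgeR adjusted p = 0.813). For each of the 3 Egr genes mutant 1 was the highest library and mutant 2 the lowest. Nr4a2 gave 18.9 and 22.7 CPM in WT and 17.6 and 22.7 CPM in mutant libraries (edgeR adjusted p = 0.862). Nr4a3 gave 29.3 and 17.7 CPM in WT and 16.1 and 39.1 CPM in mutant libraries (edgeR adjusted p = 0.944). The high value of mutant 2 for Nr4a3 includes the cell with 27 UMIs.

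Genes connected to the members showed little genotype difference. Of 6 tested partners (among them Egr4 and the Egr co-repressors Nab1 and Nab2), 0 rose and 0 fell. Of 18 genes tied to Egr2 or Egr3, 1 rose (Rnf128, an E3 ligase of T cell anergy) and 0 fell. Of 12 genes tied to Nr4a, 1 rose (Tox2, a follicular helper transcription factor) and 1 fell (Foxp3, the regulatory T cell factor). Of 23 receptor signal targets, 0 rose and 0 fell, with a median log2 difference of 0.03 against -0.00 over all genes.

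**Figure D1:**
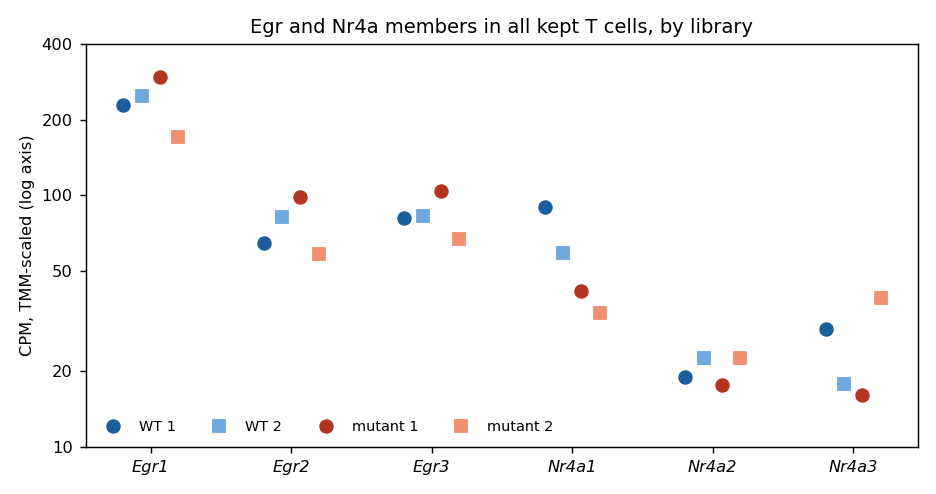
TMM-scaled CPM (vertical log axis) of the 6 members in all kept T cells, 1 point per library, with circles and squares for the first and second library of each genotype. Nr4a1 runs from 89.5 and 59.0 CPM in the WT libraries to 41.8 and 34.0 CPM in the mutant libraries, and the groups of the other 5 members overlap.

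Which states used which members was tested with gates on genes that are not members. In each library, cells with at least 1 UMI of a state gene were summed apart from cells with 0, and the 2 sums were compared in edgeR with library as a block. Positive and negative cells of a gate came from the same libraries, so antibody handling and genotype were matched. Cells with a UMI of a gate gene were mostly deeper (for Tnfrsf9, medians of 9274 to 10371 UMIs against 8059 to 8269), which the scaling of sums takes into account only in part. Over 10 gates and 6 members, 26 of 60 tests passed.

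Cells with a UMI of Tnfrsf9, the costimulatory receptor 4-1BB that is induced by recent receptor signal, were higher in all 3 Nr4a genes and in none of the Egr genes by this test. In this gate 16.3% of all genes passed (9.75% higher and 6.53% lower). Nr4a1 gave 51.7, 35.3, 32.6 and 31.8 CPM in negative cells of WT 1, WT 2, mutant 1 and mutant 2 and 127, 90.6, 53.7 and 37.3 CPM in positive cells. The positive side was higher in 4 of 4 libraries, with the smallest step in mutant 2. It rose by 1.10 ± 0.11 on the log2 scale (SE; edgeR, Benjamini-Hochberg adjusted p = 6.32e-07). Nr4a2 rose by 2.03 ± 0.18 (edgeR adjusted p = 1.77e-07) and Nr4a3 by 1.36 ± 0.17 (edgeR adjusted p = 8.51e-06), each higher in 4 of 4 libraries. The Egr genes differed by 0.17 ± 0.06 (Egr1), 0.03 ± 0.09 (Egr2) and 0.14 ± 0.10 (Egr3), with edgeR adjusted p of 0.0724, 0.870 and 0.387. Egr1 passed without mutant 1 (0.22, edgeR adjusted p = 0.0254) and without cluster 6 (0.20, adjusted p = 0.0342). With cells split by a UMI of each member instead, Tnfrsf9 rose with all 6 genes. It rose by 0.40 with Egr1, 0.32 with Egr2 and 0.45 with Egr3 (edgeR adjusted p = 0.00122, 0.0101 and 0.00123). With Nr4a1, Nr4a2 and Nr4a3 it rose by 0.93, 1.10 and 1.37 (edgeR adjusted p of at most 0.000187).

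Cells with a UMI of Il4, the type 2 cytokine made by follicular helper T cells, were lower in all 3 Nr4a genes and in Egr3. In this gate 15.3% of all genes passed (8.1% higher and 7.16% lower). Nr4a1 gave 109, 81.6, 51.6 and 48.7 CPM in Il4-negative cells of WT 1, WT 2, mutant 1 and mutant 2 and 23.7, 12.1, 28.3 and 12.9 CPM in Il4-positive cells. The positive side was lower in 4 of 4 libraries. It fell by 1.80 ± 0.17 on the log2 scale (SE; edgeR adjusted p = 1.25e-08). Nr4a3 gave 36.5, 24.2, 20.03 and 62.1 CPM in negative and 4.66, 4.39, 10.6 and 5.72 CPM in positive cells (-2.11 ± 0.24, edgeR adjusted p = 2.74e-07; -1.13 with cells thinned to 4000 UMIs and -2.90 without mutant 1). Egr3 gave 90.9, 105, 119 and 87.9 CPM in negative and 49.7, 36.3, 83.4 and 37.1 CPM in positive cells (-0.91 ± 0.11, edgeR adjusted p = 1.18e-06). Egr1 (-0.12 ± 0.07) and Egr2 (0.03 ± 0.11) did not pass, with edgeR adjusted p of 0.311 and 0.894.

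Nr4a2 was nearly absent from Il4-positive cells. Of its 529 UMIs, 11 were in the 832 cells with Il4, and it gave 23.9, 33.0, 29.6 and 36.3 CPM in negative and 1.55, 1.10, 0.934 and 2.86 CPM in positive cells of the 4 libraries. The difference was -4.42 ± 0.26 (SE; edgeR adjusted p = 2.64e-12). Without the cluster that held most Nr4a2 UMIs (cluster 6 below), Nr4a2 fell under the count filter and could not be tested in the gates on Il4, Il21, Foxp3 and Nkg7.

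The gate on Il21, the main helper cytokine of follicular T cells, gave the same 4 calls, and 18.6% of all genes passed (9.29% higher and 9.26% lower). Nr4a2 fell by 4.20 ± 0.21, Nr4a3 by 1.76 ± 0.20, Nr4a1 by 1.55 ± 0.13 and Egr3 by 0.52 ± 0.11 on the log2 scale, with edgeR adjusted p of at most 0.0015. Each was lower in 4 of 4 libraries. Egr1 (-0.16 ± 0.09) and Egr2 (0.02 ± 0.10) did not pass (edgeR adjusted p = 0.218 and 0.924), but Egr1 did without mutant 1 (-0.30, adjusted p = 0.0174). With cells thinned to 4000 UMIs the Nr4a2 difference was -2.97.

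Cells with a UMI of Cxcr5, the receptor that brings T cells into follicles, shared only some of this pattern. In this gate 15.5% of all genes passed (7.91% higher and 7.58% lower). Egr3 fell by 0.97 ± 0.09, Nr4a1 by 0.90 ± 0.11 and Egr1 by 0.41 ± 0.06 on the log2 scale, all lower in 4 of 4 libraries (edgeR adjusted p = 2.25e-08, 1.17e-06 and 3.35e-05). Nr4a2 went the other way, at 16.2, 20.9, 7.32 and 10.4 CPM in negative and 23.6, 25.1, 27.9 and 35.0 CPM in positive cells (0.89 ± 0.19, edgeR adjusted p = 0.00188). That rise was lost on leaving out cluster 6 (0.41, edgeR adjusted p = 0.640) or mutant 1 (0.57, adjusted p = 0.0648). Egr2 (-0.23 ± 0.09, edgeR adjusted p = 0.103) and Nr4a3 (-0.38 ± 0.19, edgeR adjusted p = 0.214) did not pass, but both did without mutant 2 (-0.30 and -0.56, adjusted p = 0.00408 and 0.0056).

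Cells with a UMI of Nkg7, a protein of cytotoxic granules that also marks Th1-like cells, held most of the Nr4a2 signal. In this gate 10.6% of all genes passed (5.6% higher and 5.03% lower), and it was fitted on 3 libraries because mutant 2 had 7 Nkg7-positive cells. Nr4a2 gave 4.45, 4.16 and 5.70 CPM in Nkg7-negative cells of WT 1, WT 2 and mutant 1 and 103, 206 and 288 CPM in Nkg7-positive cells. Every positive value was more than 10 times any negative value, and 396 of the 529 Nr4a2 UMIs were in the 251 cells with Nkg7. The log2 difference was 5.22 ± 0.20 (SE; edgeR adjusted p = 1.45e-15). Nr4a1 (0.80 ± 0.14, edgeR adjusted p = 0.000275) and Nr4a3 (0.86 ± 0.21, edgeR adjusted p = 0.00756) also rose, but neither call held when cells were thinned to 4000 UMIs (edgeR adjusted p = 0.0930 and 0.363). The Nr4a3 call also ended on leaving out WT 1 (adjusted p = 0.284) or cluster 6 (adjusted p = 0.650). The Egr genes did not pass.

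The gates on Foxp3 and Ccr7 each gave 1 member call, Nr4a2. In the gate on Foxp3, the regulatory T cell factor, fitted on WT 1, WT 2 and mutant 1 since mutant 2 had 2 positive cells, 2.88% of all genes passed (1.86% higher and 1.02% lower), and Nr4a2 was the 1 member among them. The 162 Foxp3-positive cells held 3 Nr4a2 UMIs, all in WT 1 (2.73 CPM against 20.6 in Foxp3-negative cells), and 0 in the other libraries (edgeR adjusted p = 0.00271). Nr4a1, which is known to take part in regulatory T cell development, gave 121, 108 and 32.2 CPM in positive and 86.4, 56.6 and 42.0 CPM in negative cells (0.53 ± 0.20, edgeR adjusted p = 0.273). In the gate on Ccr7, the receptor for T cell zones, 14.3% of genes passed (7.22% higher and 7.13% lower), and Nr4a2 was the 1 member that did (-1.31 ± 0.21, edgeR adjusted p = 4.79e-05). Without cluster 6 that difference turned to 0.46 (edgeR adjusted p = 0.447). Without WT 1, Egr1 (0.45), Egr3 (0.57) and Nr4a1 (0.90) passed too, with edgeR adjusted p of 0.00154, 0.000212 and 4.85e-05.

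Of the remaining 3 gates, that on Mki67, a marker of cycling cells, gave lower levels of some members. In the gate on Mki67, 8.53% of genes passed (5.21% higher and 3.32% lower), and Egr1 (-0.52 ± 0.13), Nr4a1 (-1.15 ± 0.23) and Nr4a3 (-1.18 ± 0.36) fell, with edgeR adjusted p of 0.00816, 0.0014 and 0.0412. Egr1 and Nr4a1 lost the call with cells thinned to 4000 UMIs, Egr1 also without WT 2 (edgeR adjusted p = 0.164), and Nr4a3 without WT 1, WT 2 or mutant 2 (edgeR adjusted p from 0.0503 to 0.240). In the gate on Ccr9, a gut-homing receptor, 5.4% of genes passed (2.76% higher and 2.64% lower). Nr4a1 rose by 1.03 ± 0.24 (edgeR adjusted p = 0.00482), lost without WT 2 (0.71, edgeR adjusted p = 0.436) or mutant 2 (0.79, edgeR adjusted p = 0.0793). In the gate on Isg15, an interferon-induced gene, 12% of genes passed (6.47% higher and 5.54% lower). Nr4a2 (-2.06 ± 0.21, edgeR adjusted p = 1.33e-06) and Egr2 (-0.32 ± 0.07, edgeR adjusted p = 0.00552) fell. Nr4a2 was lower in 3 of 4 libraries, and the difference turned to 0.91 without cluster 6 (edgeR adjusted p = 0.191). The Egr2 call ended on leaving out WT 2 (adjusted p = 0.0696) or mutant 1 (adjusted p = 0.0519).

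**Figure D2:**
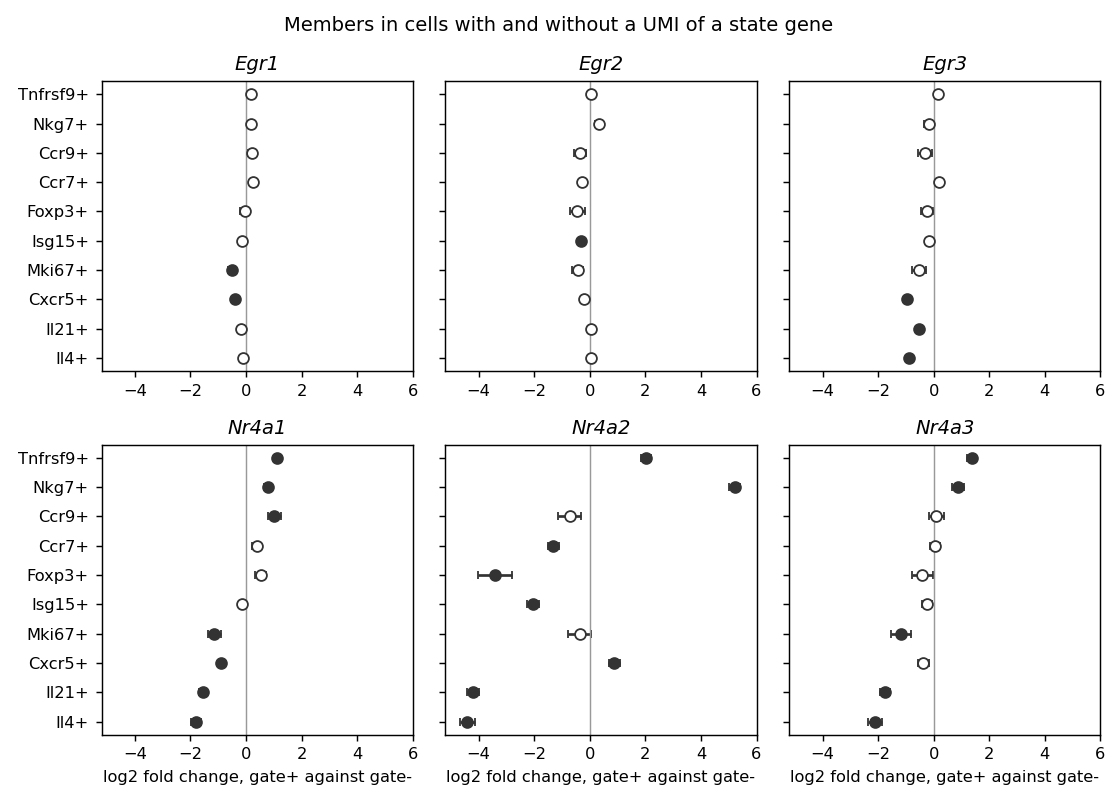
Log2 difference of each member between cells with and without a UMI of each state gene, from edgeR fits with library as a block; error bars are standard errors and filled points passed the test. Nr4a2 stands out at 5.22 for Nkg7 and -4.42 for Il4, and the Egr genes stay near 0 for Tnfrsf9. The Nr4a2 point for Foxp3 rests on 3 UMIs in positive cells, so its size depends on the fit.

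Levels were also taken by cluster of cells. Clusters were made with the 6 members left out of the variable genes, but other genes of the same cells set them, so levels by cluster are a description with no test. Means are over libraries with at least 10 cells in the cluster. Marker lists named a Tfh-like cluster (729 cells), 2 naive or memory-like clusters (470 and 197 cells) and interferon-like, gut-homing effector-like and proliferating-like clusters (93, 91 and 24 cells). Cluster 1 (484 cells, led by Egr3, Gpr183 and Nab2), cluster 3 (377 cells, led by Stom and Gpm6b), cluster 4 (253 cells, led by Cdca7, Srm and Myc), cluster 6 (138 cells, led by Eomes, Slamf7, Nkg7 and Crtam) and cluster 7 (115 cells, led by Lars2) stayed unnamed. Cluster 7 was shallow, with a median of 3326 UMIs. The leading genes of the gut-homing effector-like cluster also included 3 regulatory T cell markers, Foxp3, Capg and Il2ra. Those of cluster 4 also included the DNA replication genes Mcm3, Mcm5 and Mcm6.

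Most Nr4a2 UMIs lay in cluster 6, which held 4.64% of cells and 81.1% of them. It gave 211, 359 and 407 CPM there in WT 1, WT 2 and mutant 1 (325 ± 102, SD, n = 3), and 326 CPM in the 6 cells of mutant 2. Next in order came cluster 4 (20.3 ± 30.4, n = 4), the naive or memory-like cluster 5 (6.44 ± 4.79, n = 2) and cluster 1 (4.45 ± 4.47, n = 4). Every other cluster with at least 2 libraries had a mean of at most 1.57 CPM, and clusters 7 and 9 had 0 UMIs. The step from cluster 6 to cluster 4 was the 1 place in this order where libraries of neighbouring clusters did not overlap. A UMI of Nr4a2 was found in 58.7% of cells of cluster 6 and in 0.823% of Tfh-like cells.

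Nr4a1 was low in Tfh-like cells and in cluster 3. By mean it was highest in cluster 5 (164 ± 44.3 CPM, n = 2), whose leading genes include Sox4, Ccr9 and Tnfrsf9. Next came cluster 7 (124 ± 155, n = 4), cluster 4 (101 ± 69.4, n = 4), cluster 1 (94.6 ± 28.8, n = 4) and cluster 6 (82.6 ± 38.9, n = 3). The cluster 5 mean held WT libraries only, since mutant 1 and mutant 2 had 7 and 2 cells there. The other means included mutant libraries, so this rank is not matched for genotype. Middle values were 53.9 ± 28.5 in the naive or memory-like cluster 2, 53.4 ± 27.4 in gut-homing effector-like and 47.0 ± 23.0 in interferon-like cells. The libraries of all these clusters overlapped with those of the next in order. Tfh-like cells (12.6 ± 6.23, n = 4) and cluster 3 (8.01 ± 5.97, n = 4) lay below, with no overlap between the interferon-like and the Tfh-like values. The high mean of cluster 7 rests on WT 1, at 357 CPM on 14 cells.

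Nr4a3 followed Nr4a1 in part. It was highest in cluster 4 (83.9 ± 70.2 CPM, n = 4), where mutant 2 gave 184 CPM on 11 cells, then in cluster 7 (59.2 ± 49.8), cluster 6 (40.3 ± 17.0), cluster 1 (36.5 ± 17.1) and cluster 5 (34.6 ± 5.72). Lower values were 16.7 ± 2.43 in interferon-like, 12.3 ± 10.7 in cluster 2, 11.1 ± 7.89 in gut-homing effector-like, 6.77 ± 3.36 in Tfh-like cells and 0.549 ± 0.743 in cluster 3. Libraries of neighbouring clusters did not overlap at 2 places, below cluster 5 and below the Tfh-like cluster. In cluster 3 Nr4a3 had 2 UMIs in 377 cells.

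Egr3 was highest in clusters 7 and 1 and lowest in gut-homing effector-like cells. It gave 183, 216, 231 and 152 CPM in cluster 1 of WT 1, WT 2, mutant 1 and mutant 2 (196 ± 35.1, n = 4). This cluster had 16.3% of cells and 35.6% of all Egr3 UMIs. The shallow cluster 7 had a similar mean with a wide spread (201 ± 134, n = 4, on 77 UMIs). In order below were interferon-like cells (119 ± 57.6), cluster 5 (102 ± 54.6), cluster 4 (95.1 ± 32.2), cluster 2 (86.9 ± 21.7) and cluster 6 (64.4 ± 11.04). After a step with no overlap came cluster 3 (34.1 ± 19.6), Tfh-like cells (26.9 ± 22.1) and gut-homing effector-like cells (19.8 ± 14.8).

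Egr1 and Egr2 were spread more evenly. Egr1 ran from 365 ± 112 CPM in cluster 1 through 293 ± 48.1 in cluster 6, 291 ± 115 in cluster 5, 274 ± 124 in cluster 7, 248 ± 11.9 in interferon-like cells and 224 ± 55.8 in cluster 2. Below them were cluster 4 (205 ± 66.9), gut-homing effector-like cells (190 ± 23.9), Tfh-like cells (183 ± 63.2) and cluster 3 (166 ± 9.49). Every neighbouring pair in this order overlapped over libraries. Egr2 was highest in cluster 6 (138 ± 42.2), then cluster 7 (121 ± 54.7), cluster 1 (113 ± 42.4) and interferon-like cells (90.1 ± 2.75). Tfh-like cells (69.0 ± 18.2), cluster 5 (66.4 ± 44.2), cluster 4 (65.0 ± 50.2) and cluster 2 (59.7 ± 14.3) followed, with cluster 3 (36.2 ± 17.1) and gut-homing effector-like cells (26.6 ± 16.4) lowest. These neighbours overlapped throughout as well, and Tfh-like cells were in the middle of the order for Egr2 while near the bottom for Egr3, Nr4a1 and Nr4a3.

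The cluster that led for a gene depended on the clustering for all members but Nr4a2. At resolution 0.5 the leading cluster matched for 2 of the 6 genes, and at resolution 1.2 for 3.

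**Figure D3:**
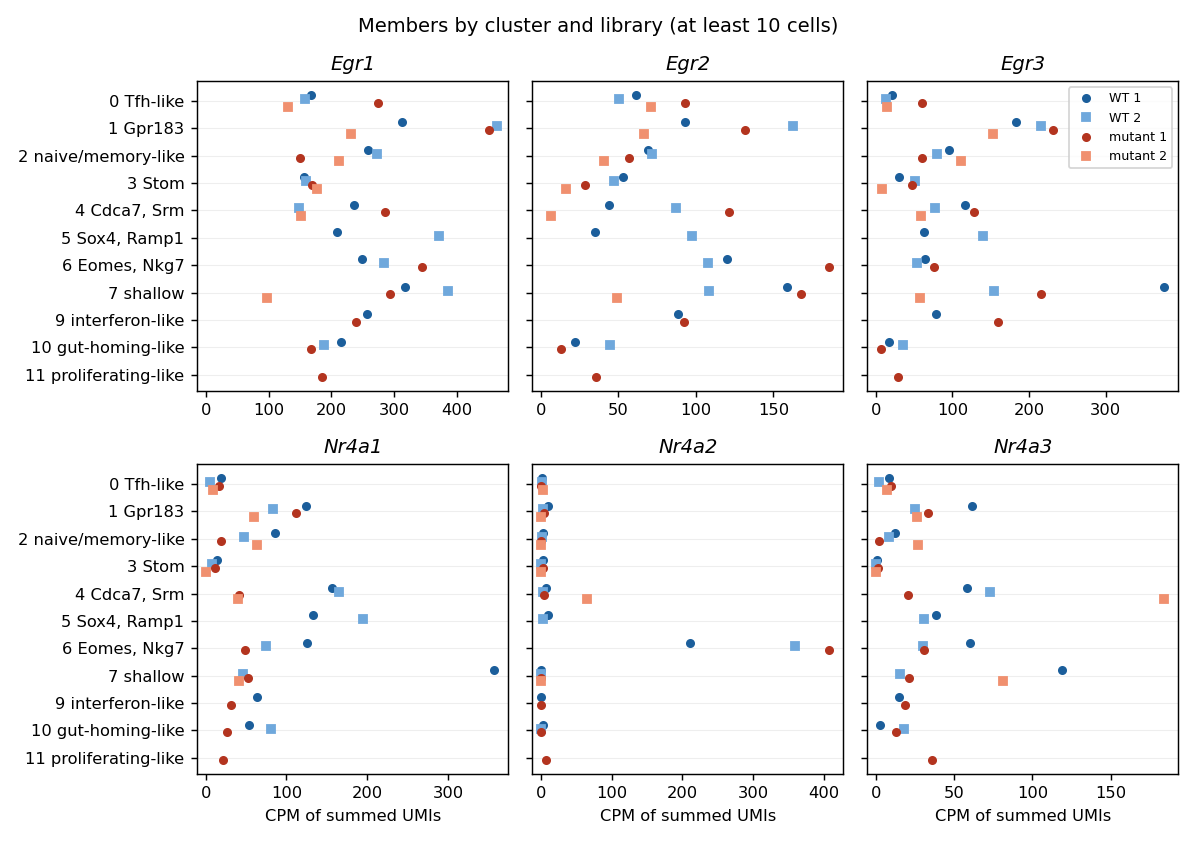
CPM of summed UMIs (horizontal axis) of each member by cluster, 1 point per library with at least 10 cells. Nr4a2 reaches 211 to 407 CPM in cluster 6 and at most 65.7 CPM elsewhere (mutant 2 in cluster 4), while Egr1 overlaps between neighbouring clusters throughout.

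Members were often detected in the same cells. With every cell thinned to 4000 UMIs, the share of cells with both genes of a pair exceeded the product of their shares in 4 of 4 libraries for 13 of the 15 pairs. For Egr1 and Egr2, 12.7%, 15.4%, 18.0% and 10.97% of cells in WT 1, WT 2, mutant 1 and mutant 2 had both, against products of 6.71%, 8.61%, 10.0% and 5.31%. The ratios were thus between 1.79 and 2.07 in all libraries, on 415 cells with both. For Egr3 and Nr4a1 the ratios were between 2.86 and 5.31 on 200 cells, and for Nr4a1 and Nr4a3 between 2.65 and 7.38 on 70 cells. Egr1 with Nr4a2 and Egr2 with Nr4a2 fell below the product in WT 2 (0.956 and 0.441, on 8 and 2 cells with both). With cells thinned to 2000 UMIs, 12 of the 15 pairs exceeded the product in 4 of 4 libraries. Egr1 with Nr4a2 did so in 1 of 4 (12 cells with both), and Egr2 and Egr3 with Nr4a2 in 3 of 4. The ratios above pool clusters that differ in member levels. Within clusters, at 4000 UMIs, ratios were smaller, similar or larger, depending on the pair and the cluster. Egr2 with Egr3 ran from 1.60 in cluster 1 to 3.27 in cluster 2, beside 2.19 to 2.57 over the whole libraries. Nr4a1 with Nr4a3 gave 2.21, 2.10 and 1.93 in clusters 1, 4 and 5. In cluster 6 Nr4a2 gave 1.39 with Nr4a3, 0.995 with Egr1 and 0.83 with Egr3. Egr1 with Egr2 gave 2.05 in Tfh-like cells and 1.43 in cluster 1.

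Shares were also taken among the cells positive for 1 member. Of cells with a UMI of Nr4a1, 50%, 49.3% and 64.6% also had Egr3 in WT 1, WT 2 and mutant 1, against 17.1%, 17.3% and 19.9% of all cells. Mutant 2 had 7 such cells. Of cells with Egr3, 48.8%, 35.9%, 32.5% and 24.0% had Nr4a1 in the 4 libraries, against 16.7%, 12.6%, 9.99% and 4.52% of all cells. At this depth 47.4%, 44.4%, 44.5% and 58.1% of cells in the 4 libraries had none of the 6 genes, and 12.3%, 12.1%, 12.7% and 9.68% had at least 3. By cluster, at least 3 members were found in 31.8% of cells of cluster 6, 22.5% of cluster 1 and 5.31% of Tfh-like cells.

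**Figure D4:**
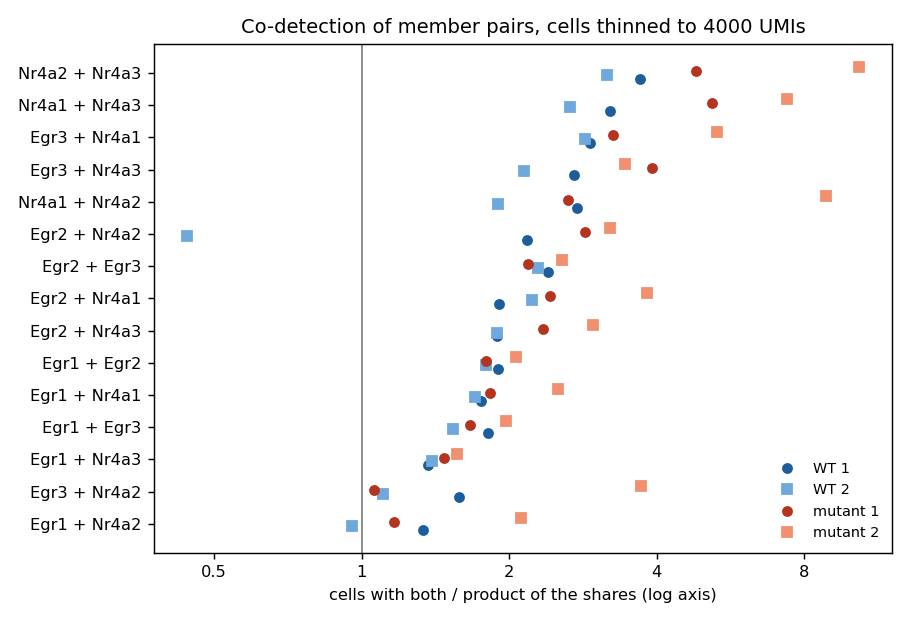
Ratio of the share of cells with both members of a pair to the product of their shares (horizontal log axis), 1 point per library, cells thinned to 4000 UMIs; the vertical line marks 1. Points lie above 1 for 13 of 15 pairs in all 4 libraries, with WT 2 at 0.441 for Egr2 and Nr4a2.

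Genes whose pattern was most like each member were found over 29 units of cluster by library with at least 20 cells, among 8245 genes, as Pearson correlations of log2(CPM + 10) centred on each library. Units share libraries, and the values are descriptions. Nr4a2 was most like Xcl1 (0.98), a chemokine of cytotoxic cells, Crtam (0.98), Eomes (0.95), Slamf7 (0.95) and Plek (0.91). All of these were leading genes of cluster 6, so the correlations rest mostly on its units. Those came from WT 1, WT 2 and mutant 1, with 74, 33 and 25 cells. Nr4a1 was most like Nr4a3 (0.87), then Tagap (0.84), Ier2 (0.83), Hivep1 (0.79) and Egr3 (0.79). Nr4a3 was most like Tagap (0.88) and Nr4a1 (0.87), followed by the nucleolar genes Gnl3 (0.81), Nop56 (0.81) and Surf6 (0.79). Egr3 was most like Mapk11 (0.84), Foxp1 (0.83), Fbxo17 (0.82), Nab2 (0.81) and Irf2bp2 (0.80). The patterns of Egr1 and Egr2 had weaker partners, led by Vps36 (0.71) and Tpm3 (0.78). Between Egr3 and Nr4a2 the correlation was -0.05.

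Cells with and without a UMI of each member were then compared, to see which other genes went with it. The gates passed 1.58% of genes for Egr1, 2.71% for Egr2, 7.16% for Egr3, 6.65% for Nr4a1, 6.55% for Nr4a2 and 7.15% for Nr4a3. The higher side alone held 1.22%, 1.94%, 4.44%, 3.6%, 3.62% and 4.22% of genes in that order, and the lower side 0.364%, 0.767%, 2.72%, 3.06%, 2.93% and 2.93%. The Nr4a2 gate was fitted on 3 libraries, since mutant 2 had 8 positive cells. Of the 30 tests of 1 member in the gate of another, 27 passed and all 27 were rises. Among these, Nr4a3 rose by 3.57 ± 0.19 with Nr4a1 and Nr4a1 by 3.33 ± 0.14 with Egr3, on the log2 scale (edgeR, Benjamini-Hochberg adjusted p = 1.68e-11 and 1.28e-12). Egr2 rose by 3.00 ± 0.11 with Egr1 (edgeR adjusted p = 6.78e-15). The 3 tests that did not pass all involved Nr4a2: Nr4a2 in the Egr3 gate (0.64 ± 0.31, edgeR adjusted p = 0.261; 1.38 and 3.88e-05 with cells thinned to 4000 UMIs), and Egr1 (0.47 ± 0.13, edgeR adjusted p = 0.0522) and Egr3 (0.10 ± 0.21, edgeR adjusted p = 0.878) in the Nr4a2 gate. Without WT 2, Egr1 passed in the Nr4a2 gate (0.64, edgeR adjusted p = 0.00439). Calls lost without 1 library were Nr4a2 and Nr4a3 with Egr1 (WT 1 left out, edgeR adjusted p = 0.333 and 0.161; the first also with mutant 1 left out, adjusted p = 0.0916) and Egr2 with Nr4a2 (WT 1 or mutant 1 left out, adjusted p = 0.0581 and 0.124).

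Of 6 partner genes tested, 2 rose with Egr1, 3 with Egr2, 3 with Egr3, 2 with Nr4a1, 0 with Nr4a2 and 2 with Nr4a3, and 0 fell. Nab2, a co-repressor that binds Egr proteins and is itself an Egr target, rose by 0.68 with Egr1, 0.72 with Egr2, 1.34 with Egr3, 1.23 with Nr4a1 and 0.81 with Nr4a3, and gave 0.53 with Nr4a2 (edgeR adjusted p = 0.0752). Nab1, its relative, did not pass in any of the 6 gates (log2 differences from -0.15 to 0.04). Egr4, the remaining Egr gene, rose by 2.51, 2.05, 3.12, 2.17 and 1.74 with the same 5 members and gave 1.03 with Nr4a2 (edgeR adjusted p = 0.274). Its call with Egr1 ended on leaving out WT 1 (edgeR adjusted p = 0.0660) or mutant 1 (adjusted p = 0.0684). Tle3, a co-repressor, rose with Egr2 (0.32) and Egr3 (0.54), and Rxrb, a nuclear receptor partner, and Trib1 did not pass in any gate.

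Receptor signal targets rose with every member to a different extent. Of 22 tested, 13 rose with Egr1, 15 with Egr2, 17 with Egr3, 16 with Nr4a1, 9 with Nr4a2 and 20 with Nr4a3, and 0, 0, 0, 1, 2 and 1 fell. Nfkbid, a nuclear inhibitor of NF-kappaB family, rose by 1.39 with Egr1 and 1.78 with Egr3. Irf4, a factor whose dose follows receptor strength, rose by 1.26 with Egr1. Myc, the growth regulator, rose by 1.77 with Nr4a1 and 2.35 with Nr4a3, and Irf8 by 2.12 with Nr4a3. Of AP-1 and other immediate-early genes, 9 of 21 rose with Egr1, 9 of 21 with Egr2 (2 fell), 10 of 21 with Egr3 (1 fell), 14 of 21 with Nr4a1, 5 of 21 with Nr4a2 and 9 of 20 with Nr4a3. Heat shock genes moved with Nr4a1 too, where 7 of 9 rose, against 1, 2, 2, 1 and 5 of 9 with Egr1, Egr2, Egr3, Nr4a2 and Nr4a3. Hspa1a (0.28) and Hspa1b (0.31) did not pass in the Nr4a1 gate (edgeR adjusted p = 0.191 and 0.234). Whether stress of tissue handling had a part in the rises was not tested.

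Follicular helper markers divided the members. Of 12 markers, 11 fell and 0 rose with Nr4a1, 8 fell and 0 rose with Nr4a2 and with Nr4a3, and 6 fell and 1 rose with Egr3. With Egr2, 3 rose and 0 fell, and with Egr1, 1 rose and 1 fell. Ascl2, which starts the follicular programme, fell by 1.66 with Nr4a1 and 1.15 with Egr3 (by 1.83 with Egr3 without mutant 1). Sostdc1, a secreted protein of follicular T cells, fell by 2.17 with Nr4a3 (by 2.97 without mutant 1). Il4 fell by 2.41 with Nr4a2 and by 0.87 with Nr4a1, and the call with Nr4a1 was lost without WT 1 (-0.58, edgeR adjusted p = 0.209). Ighm, the immunoglobulin heavy chain gene of the B cell list, fell in all 6 gates, by 0.25 (Egr1) to 1.15 (Nr4a1) on the log2 scale. Its part in these results was not tested.

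Of the cytotoxic or Th1 marker list, 1 of 5 tested genes rose with Egr1, 2 of 4 with Egr2, 0 of 4 with Egr3, 2 of 5 with Nr4a1, 2 of 4 with Nr4a2 and 2 of 3 with Nr4a3. Gzmb fell by 1.06 with Nr4a1. Nkg7 rose by 0.72 with Egr2, 1.31 with Nr4a1, 4.03 with Nr4a2 and 1.30 with Nr4a3, and Eomes, a factor of cytotoxic lineages, rose by 0.62 with Egr1, 1.48 with Egr2, 0.91 with Nr4a1, 5.16 with Nr4a2 and 1.54 with Nr4a3. Ifng, the Th1 cytokine, did not pass in any of the 6 gates (-0.995 with Nr4a2, edgeR adjusted p = 0.244). Among the largest folds in the Nr4a2 gate Xcl1 rose by 6.80, Crtam, an adhesion receptor of cytotoxic CD4 cells, by 6.22 and Penk, which encodes the opioid precursor proenkephalin, by 5.20. The sizes moved by more than 1.5 times without 1 library: Xcl1 was 8.04 without WT 2 and 5.79 without mutant 1, and Crtam and Penk 7.58 and 6.48 without WT 1. All 3 passed in each of these fits. In the Nr4a3 gate Xcl1 rose by 4.89 (3.78 without mutant 1) and Crtam by 2.66. In the Egr2 gate Crtam rose by 1.81 and Slamf7 by 1.56. In the Nr4a1 gate Tnfsf9, the ligand of 4-1BB, rose by 2.04. In the Egr3 gate Cxcr4, a chemokine receptor, fell by 1.68.

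Genotype was then compared within classes of cells. The class tests used sums per library over clusters with the same name, with at least 20 cells in every library, and 4 classes met this. In Tfh-like cells, 164, 158, 359 and 48 cells in WT 1, WT 2, mutant 1 and mutant 2, 0.632% of genes passed (0.379% higher and 0.253% lower) and Egr3 was the 1 member among them. Egr3 gave 20.8 and 12.9 CPM in WT and 62.3 and 14.1 CPM in mutant libraries. The groups overlapped, and mutant 1 alone stood high. The fitted log2 difference was 1.53 ± 0.30 (SE; edgeR adjusted p = 0.00232). It turned to -0.28 without mutant 1 (edgeR adjusted p = 0.913), was 1.19 without WT 2 (edgeR adjusted p = 0.127), and was lost with DESeq2 (1.21, adjusted p = 1.00) and with the members left in the variable genes (0.98, edgeR adjusted p = 0.136), so it rests on 1 library.

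The other members in Tfh-like cells did not pass. Egr1 gave 167 and 157 CPM in WT and 287 and 130 CPM in mutant libraries (edgeR adjusted p = 0.272), again with mutant 1 high. Egr2 gave 61.2 and 50.3 CPM in WT and 97.2 and 70.5 CPM in mutant libraries (0.68 ± 0.19, edgeR adjusted p = 0.0802). Without mutant 2, Egr1 (0.82) and Egr2 (0.80) passed (edgeR adjusted p = 8.16e-07 and 0.00134). The Egr2 groups did not overlap, as was so for 36.7% of genes in this class. Nr4a1 gave 19.1 and 5.80 CPM in WT and 17.2 and 8.81 CPM in mutant libraries (edgeR adjusted p = 0.961), and the groups overlapped. Nr4a3 gave 8.66 and 1.93 CPM in WT and 9.78 and 7.05 CPM in mutant libraries (edgeR adjusted p = 0.830). Nr4a2 was too low to be tested.

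In naive or memory-like cells, 425, 130, 81 and 31 cells in the same order, 0.854% of genes passed (0.353% higher and 0.502% lower) and no member did. Nr4a1 came nearest, with 105 and 91.8 CPM in WT and 49.2 and 67.4 CPM in mutant libraries (-0.85 ± 0.22, edgeR adjusted p = 0.0525). Both mutant libraries were below both WT libraries, and 42.4% of genes in this class had groups that did not overlap in 1 direction or the other. It passed without mutant 2 (-1.03, edgeR adjusted p = 0.0206). Egr1 gave 241 and 309 CPM in WT and 186 and 205 CPM in mutant libraries (edgeR adjusted p = 0.183), also without overlap. Egr2 (56.3 and 81.0 against 56.9 and 36.8 CPM), Egr3 (83.3 and 99.9 against 75.3 and 101 CPM) and Nr4a3 (22.4 and 15.3 against 7.68 and 33.7 CPM) overlapped. Cluster 5, high in Nr4a1 in the WT libraries, made up 12.1% and 5.39% of WT and 0.794% and 1.10% of mutant libraries. The makeup of this class thus differed between the groups, and its part in the Nr4a1 values was not tested.

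In cluster 1, where the Egr genes were high, no member passed and 0.0256% of all genes did (0.0128% higher and 0.0128% lower). Egr1 gave 316 and 469 CPM in WT and 466 and 231 CPM in mutant libraries, and Egr3 gave 185 and 218 CPM in WT and 238 and 152 CPM in mutant libraries. Nr4a1 gave 125 and 84.2 CPM in WT and 115 and 59.4 CPM in mutant libraries, and the groups overlapped for all 5 members tested. In cluster 3, where 0.0438% of genes passed (0.0146% higher and 0.0292% lower), Egr1, Egr2 and Egr3 could be tested and did not pass. Egr2 was lower in both mutant libraries there (54.2 and 47.6 CPM in WT, 29.8 and 16.3 CPM in mutant, edgeR adjusted p = 0.676). Of all genes tested in this cluster, 38.5% had groups that did not overlap.

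An interaction term, fitted with a block for library, tested whether the genotype difference itself differed between these 2 named classes (Tfh-like minus naive or memory-like), and 0.305% of 8866 genes passed (0.248% higher and 0.0564% lower). Egr1 (1.00 ± 0.18, edgeR adjusted p = 0.000145) and Egr3 (1.61 ± 0.31, edgeR adjusted p = 0.000349) passed, with the mutant minus WT difference higher in Tfh-like cells. Egr2 gave 1.04 ± 0.29 (edgeR adjusted p = 0.0965) and Nr4a1 1.13 ± 0.39 (edgeR adjusted p = 0.412). Neither the Egr1 nor the Egr3 call held without mutant 1 (0.08 and -0.44, edgeR adjusted p = 0.987 and 0.945) or without WT 2 (0.74 and 1.16, edgeR adjusted p = 0.760 and 0.724).

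**Figure D5:**
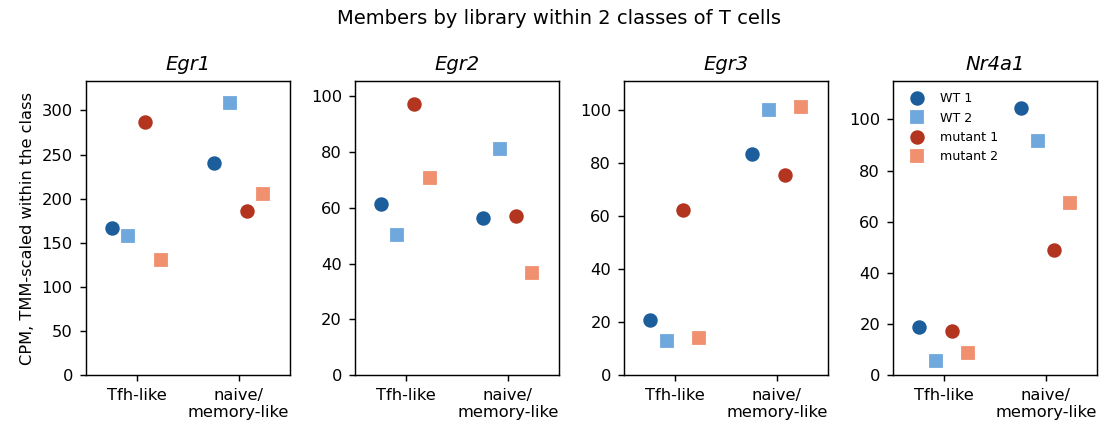
TMM-scaled CPM of 4 members in Tfh-like and in naive or memory-like cells, 1 point per library, each panel on its own axis from 0. In Tfh-like cells mutant 1 is high for Egr1 (287 CPM) and Egr3 (62.3 CPM), and in naive or memory-like cells Nr4a1 is lower in both mutant libraries (49.2 and 67.4 CPM) than in both WT libraries (105 and 91.8 CPM).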

How the data were processed

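UMI counts per gene and cell for 4 libraries (10x 3′ v2) were deposited by the authors; the submitters' processing notes name Cell Ranger 6.0.0, Seurat 4 and the mm10 build, and further filters are not given in the sources used here. Cells with at least 500 genes and at most 10% mitochondrial UMIs were kept (3108 of 4803 barcodes). Of these, 31 Scrublet doublets and 106 cells of a cluster with epithelial and B cell markers were removed. Clusters came from scanpy 1.11.5 and leidenalg 0.10.2 (resolution 0.8, 30 components, 15 neighbours, seed 0) without the 6 members, and took a name when at least 3 of a type's markers were among their 50 leading genes. Sums passed filterByExpr, were given TMM factors and went into edgeR 4.0.16 in R 4.3.3 (quasi-likelihood, Benjamini-Hochberg, 0.05), with DESeq2 1.42.0 as an alternative; gates needed 10 cells on each side in at least 3 libraries. CPM by cluster are unscaled. Named genes were taken from the members, list genes, the 5 with the largest folds at 20 CPM or more per member gate, and the 5 most alike in pattern; not all genes this rule names are reported here. Members and lists were chosen with earlier results of these data known. Intervals and limits at 0 cover counting error only, from a floor of 3 counts. On simulated counts, edgeR recovered 76.1% of 2-fold and 96.6% of 4-fold changes over all T cells (10727 genes, 6 false calls). In the Tnfrsf9 gate it recovered 94.5% and 100% (9629 genes, 8 false calls). Each simulation used 1 dispersion for all genes (0.0108 and 0.00258). Apart from the planted changes it gave all libraries the same levels. It therefore lacks the differences between these libraries, and power on the real counts was not measured.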

Additional observations from a re-analysis of the deposited data

Results flagged for a closer look

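The genotype difference (mutant minus WT) of Egr1 was higher in Tfh-like than in naive or memory-like cells by 1.00 on the log2 scale, by edgeR's interaction test over both classes (Benjamini-Hochberg adjusted p = 0.000145). Of the 4 libraries, mutant 1 alone gave the high Egr1 value in Tfh-like cells, and without it the difference was 0.08. The same test gave 1.61 for Egr3 (edgeR adjusted p = 0.000349), which turned to -0.44 without mutant 1.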

How the results depend on the processing

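Over all kept T cells, 1 member passed, and 0 passed with all filtered cells kept, without cluster 6 or with cells thinned to 4000 UMIs; leaving out 1 library gave 0 to 1. In the fit on all filtered cells 0 genes passed in edgeR and 958 had an unadjusted p under 0.05. The 2 groups share replicate numbers. The deviations of WT 1 and mutant 1 from their group means correlated with r = 0.007 over 10727 genes. With 2 libraries per group the second libraries mirror the first, so this is 1 comparison and does not settle whether same-numbered libraries shared a batch. With a replicate block Nr4a1 was -0.98 (edgeR adjusted p = 1.1e-05). Within classes, 1 member passed, against 0 with DESeq2, 2 with no count filter, 2 with the replicate block and 0 to 4 on leaving out 1 library; for the interaction that gave 0 to 2. Genes called in member gates numbered 2913, against 1228 after thinning and 1489 to 3002 on leaving out 1 library. The leading cluster matched for 2 members at resolution 0.5 and for 3 at resolution 1.2. Directions turned for members that had not passed over all T cells: Egr1 was 0.048 with at most 5% mitochondrial UMIs, 0.021 with at most 20% and 0.031 without the shallow cluster; Nr4a2 was 0.028 with at most 5%, 0.38 without cluster 6 and 0.38 with the same cluster makeup in every library; Nr4a3 was 0.17 with DESeq2 and 0.028 with all filtered cells kept. On leaving out 1 library Egr1 ran from -0.50 to 0.31, Egr2 from -0.34 to 0.43, Egr3 from -0.31 to 0.34, Nr4a2 from -0.24 to 0.12 and Nr4a3 from -0.60 to 0.66. In Tfh-like cells Egr1 ran from -0.32 to 0.82 and Egr3 from -0.28 to 1.87, with 0 members past the threshold when members were left in the variable genes, and the Egr3 interaction ran from -0.44 to 2.13. In the gates, Egr3 for Ccr7 was -0.016 after thinning and -0.088 with at least 2 UMIs of the gate gene, Nr4a2 was 0.46 for Ccr7 and 0.91 for Isg15 without cluster 6, Egr3 for Mki67 was 0.056 after thinning and Nr4a3 for Isg15 was 0.022 with at least 2 UMIs. Leaving out 1 library gave -1.03 to 0.071 for Nr4a2 and Mki67, -0.71 to 0.21 for Egr3 and Ccr9 and -0.49 to 0.0022 for Nr4a3 and Isg15. Of the 26 state gate calls, 16 held in every alternative that could be fitted. The Foxp3 gate could not be fitted after thinning. The cause of these changes was not tested. Leaving out the shallow cluster, and leaving out 1 library from the interaction, were chosen after seeing the data. Mutant 2 had 182 cells, which limits the precision of its values.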

Other observations

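Barcodes over the mitochondrial limit, which entered no comparison, also held member UMIs. In 414 of them with a median of 2034 UMIs, Egr1 was found in 24.4%, Egr2 in 13.04%, Egr3 in 13.8%, Nr4a1 in 8.45%, Nr4a3 in 5.80% and Nr4a2 in 2.17%.

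The WT libraries carried 3 hashtag antibody tags, and 71.1% of kept cells in WT 1 and 68.3% in WT 2 were assigned to a tag. The labels do not say what a tag marks. Nr4a1 stood at 112, 65.5 and 75.2 CPM in the cells of the 3 tags of WT 1 and at 56.6, 66.9 and 43.7 CPM in those of WT 2.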
